A study of Mus musculus with 8 samples.

Results

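Leukocytes share a set of genes that many other cells use little, though not every such gene is confined to leukocytes. A group of 38 such genes, chosen by symbol from receptors, signalling proteins and effectors of leukocytes in general and of myeloid cells in particular, was described in tibialis anterior (TA) muscle, a fast-twitch muscle of the lower leg. The choice was made with earlier results of these data known. Of the 38 genes, 34 were found among the 12551 genes with counts, and all 34 were kept by the filter on low counts. *Vav1*, *Tlr7*, *Aif1* and *Ncf4* were not analysed here. RNA from whole, snap-frozen TA muscles of 4 WT and 4 KL-/- male mice, all 7 weeks of age and on a mixed background, was sequenced. The KL-/- mice lack Klotho in the whole body from the germline on, not in muscle alone, and WT and KL-/- mice were bred from heterozygous parents. The labels name no treatment. *Kl* itself was not analysed here, so genotype rests on the labels. The labels number the muscles of a genotype and give each sample a different identifier, without saying whether the identifier names an animal. The p-values measure the spread between these libraries.

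Tissue phagocytes detect antibody-coated targets with Fc receptors, which signal through adaptor proteins carrying immunoreceptor tyrosine-based activation motifs (ITAMs), and detect microbial products with Toll-like receptors. These signals reorganise the actin cytoskeleton for migration and engulfment, start the phagocyte NADPH oxidase, which makes superoxide, and feed ingested material to the lysosome. The transcription factor PU.1, encoded by *Spi1*, governs much of this program in myeloid cells. In muscle at rest, most leukocytes are resident macrophages lying between the fibers, and they are known for clearing debris and for aiding repair after injury.

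Most of the leukocyte genes had lower levels in KL-/- muscle, but few differences passed edgeR's quasi-likelihood test across all genes. The log2 fold change, KL-/- over WT, was negative for 33 of the 34 genes with a median of -0.87, whereas 52.4% of all 12551 genes had a negative value and the median over all genes was -0.02. At a false discovery rate (FDR, the Benjamini-Hochberg adjusted p of edgeR's quasi-likelihood test) under 0.05, 5 of the 34 genes were lower, namely *Irf5*, *Coro1a*, *Laptm5*, *Plek* and *Rac2*. These are 14.7% of the 34, beside a background of 6.67% of all genes called lower. None of the 34 was called higher, by this test, by the likelihood ratio test, by limma-voom or by DESeq2, and 0 of them were higher at an unadjusted p under 0.05, whereas 7.35% of all genes were called higher. The likelihood ratio test called 16 of the 34 lower, beside 8.76% of all genes, and DESeq2 called 11, beside 9.11%. Levels of every KL-/- library were below those of every WT library for 10 genes, or 29.4% of the 34, beside a background of 9.47%. An unadjusted p under 0.05 with lower levels in KL-/- was found for 25 genes, or 73.5%, beside 16.4% of all genes. Because earlier results of these data were known when the genes were chosen, these contrasts with all genes are a description and not a test. Without *Irf5*, the gene with the lowest FDR, the median over the other 33 was still -0.87.

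**Figure D1:**
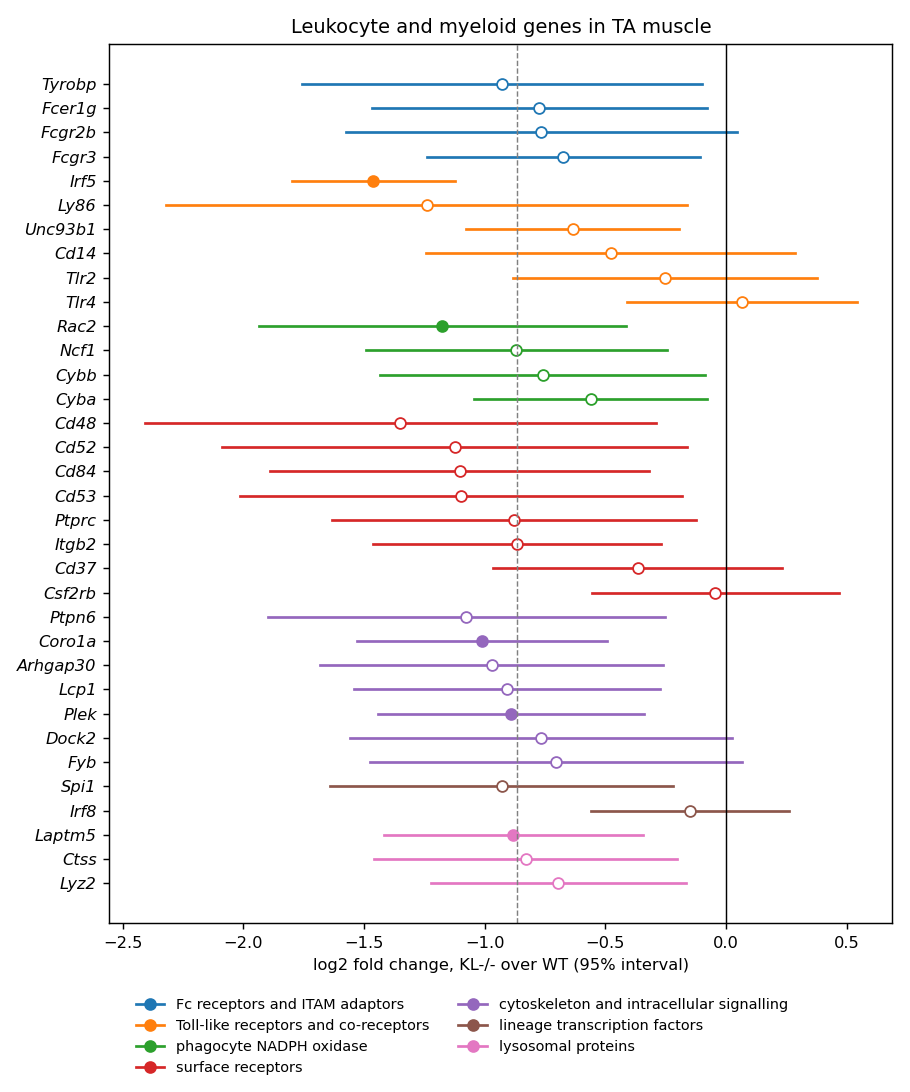
Log2 fold change of each of the 34 genes, KL-/- over WT, as points with 95% intervals from edgeR's fit, colored by role. Filled points are the 5 genes with an FDR under 0.05, open points the other 29, and the dashed line is the median of -0.87. The interval lies wholly below 0 for 25 genes, and *Tlr4* alone has a positive value.

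The 29 genes that did not pass the threshold fell into 12 with an FDR from 0.05 to 0.10, 11 from 0.10 to 0.20 and 6 at 0.20 or more. The 95% interval of the fold change stayed below 0 for 20 of these 29 genes and spanned 0 for 9. In whole muscle, fewer leukocytes, less RNA per leukocyte, a larger share of fiber RNA and changes in other cells cannot be told apart.

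The number of genes called rested on single libraries. With WT replicate 3, KL-/- replicate 3 or KL-/- replicate 4 left out, *Irf5* alone of the 34 passed, without WT replicate 2 *Irf5* and *Coro1a* passed, and without KL-/- replicate 2 the number rose to 8. The labels give KL-/- replicate 3 a later batch date than the other 7 libraries, so the comparison without it is the one within a single date. The median log2 fold change was -0.75 without KL-/- replicate 3, -0.74 without KL-/- replicate 4 and -0.62 without WT replicate 3. Negative values were found for 31 to 34 of the 34 genes whichever library was left out.

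All 34 genes were read in all 8 libraries, with between 5 and 1321 counts each, from 20860262 to 29273758 counts per library. A floor of 3 counts lies at 0.105 to 0.143 CPM (counts on a gene relative to the library total, scaled with TMM factors), covering counting error only. Expression of these genes in the muscle was low. The median of the mean WT levels was 2.29 CPM, against 16.0 CPM over all genes, and 27 of the 34 had a mean under 5 CPM in both genotypes. Relative to the length of the counted exons, the median WT level was 0.92 CPM per kb, against 5.19 CPM per kb over all genes. Only *Lyz2* (29.98 CPM per kb in WT), *Irf5* (15.7 CPM per kb) and *Cyba* (8.29 CPM per kb) were above that all-gene median.

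Of the 6 counted genes of the Toll-like receptor group within the 34, *Irf5* was lower in KL-/- muscle, and *Tlr2* and *Tlr4* were not called. The 1 call is 16.7% of the 6, beside 6.67% of all genes called lower. *Irf5* encodes a transcription factor that acts below Toll-like receptors and switches on inflammatory cytokine genes. It lies on mm10 at chr6:29526625-29537320, plus strand, and reads on its exons were counted. Its levels were 33.2, 34.5, 35.6 and 47.4 CPM in WT replicates 1 to 4 and 14.4, 10.3, 15.5 and 14.4 CPM in KL-/- replicates 1 to 4. The genotypes were far apart, with the lowest WT library at over 2 times the level of the highest KL-/- library, and the WT spread came mainly from replicate 4. Mean levels were 37.6 ± 6.56 CPM in WT and 13.7 ± 2.32 CPM in KL-/- (SD, n = 4), a log2 fold change of -1.46 (SE 0.15, FDR = 0.00226) or 36.3% of WT. This was the only one of the 34 genes called with each of the 8 libraries left out in turn, with FDR values from 0.000977 to 0.00876. In WT, *Irf5* stood at 15.7 CPM per kb, against a median of 0.92 CPM per kb over the 34 genes. Which cells of the muscle supplied the *Irf5* RNA was not tested. No other gene in the annotation shares counted exons with *Irf5*, and its neighbour *Tnpo3*, a nuclear import receptor gene, had 70.0 CPM in WT and 72.4 CPM in KL-/- (log2 fold change 0.05, FDR = 0.531).

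The 250 bases before the RefSeq start are shown for *Irf5*, *Laptm5* and *Plek*, because members that move together may be read beside their promoters. These are the called genes with a matched RefSeq entry and a single annotated start. *Coro1a* has more than a single start, and no RefSeq entry was matched for *Rac2*. Sequences are from RefSeq (GRCm38.p6), written 5′ to 3′ on the strand of the gene, with the letters GAGGAA or their reverse complement TTCCTC in capitals. This is the purine-rich core known from sites bound by PU.1. The windows lie at chr6:29526375-29526624 (plus strand) for *Irf5*, chr4:130913066-130913315 (plus strand) for *Laptm5* and chr11:17008719-17008968 (minus strand) for *Plek*.
Irf5: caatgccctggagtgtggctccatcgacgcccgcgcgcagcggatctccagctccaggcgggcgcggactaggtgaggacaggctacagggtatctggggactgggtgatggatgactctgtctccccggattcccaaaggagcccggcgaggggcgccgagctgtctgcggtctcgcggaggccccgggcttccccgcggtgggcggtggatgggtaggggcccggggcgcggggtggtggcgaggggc
Laptm5: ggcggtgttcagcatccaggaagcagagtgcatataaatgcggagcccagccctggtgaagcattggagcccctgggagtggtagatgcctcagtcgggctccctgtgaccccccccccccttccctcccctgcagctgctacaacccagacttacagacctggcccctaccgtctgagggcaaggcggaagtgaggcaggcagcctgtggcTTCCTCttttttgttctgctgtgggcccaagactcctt
Plek: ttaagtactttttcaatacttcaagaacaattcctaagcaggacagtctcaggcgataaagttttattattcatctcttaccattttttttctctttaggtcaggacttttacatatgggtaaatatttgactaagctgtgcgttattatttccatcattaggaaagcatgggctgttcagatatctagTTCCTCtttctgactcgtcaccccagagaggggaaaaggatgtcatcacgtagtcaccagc
The letters begin 38 bases before the start of *Laptm5* and 61 bases before that of *Plek*, and are not in the window of *Irf5*. Both strands were searched. RefSeq windows were matched by symbol for 25 of the 34 genes, and 9 of the 25 (36.0%) held the letters, namely *Cd37*, *Cd53*, *Ctss*, *Dock2*, *Fcgr3*, *Fyb*, *Laptm5*, *Plek* and *Ptprc*. The share was 25.7% of the 9564 counted genes with a window and 23.3% of all 32851 windows of this length. The median log2 fold change was -0.83 for the 9 genes with the letters and -0.89 for the 16 without, and 2 genes of each kind were called lower. A match of letters is a description and not a binding site.

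The other genes of the Toll-like receptor group were not called. *Unc93b1*, whose product carries nucleic-acid-sensing Toll-like receptors to endosomes, had 7.84 to 12.1 CPM in WT and 4.56 to 7.63 CPM in KL-/-, with no overlap between genotypes (log2 fold change -0.64, SE 0.20, FDR = 0.0599). *Ly86*, which encodes MD-1, the partner of the receptor-like protein CD180, had a log2 fold change of -1.24 with an SE of 0.48, and its libraries overlapped. The 95% intervals of *Cd14* and *Tlr2*, receptors of bacterial products, spanned 0 and also held the median of the 34 genes, -0.87. *Cd14*, the lipopolysaccharide co-receptor, had a log2 fold change of -0.48 (95% interval -1.24 to 0.29) and *Tlr2*, a receptor for lipoproteins, one of -0.25 (-0.88 to 0.38). *Tlr4*, the lipopolysaccharide receptor, had 3.62 ± 0.55 CPM in WT and 3.79 ± 1.08 CPM in KL-/- (SD, n = 4) and was the only one of the 34 with a positive log2 fold change, 0.07 (95% interval -0.41 to 0.54). Its sign turned when library totals replaced TMM factors (-0.05).

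None of the 4 Fc receptor and ITAM adaptor genes passed the test, and all 4 had negative values with a median log2 fold change of -0.77. *Fcgr3*, an activating receptor for IgG on chromosome 1 (chr1:171051169-171059403, minus strand), had the lowest FDR of the 4. Its levels were 2.29, 2.27, 3.85 and 2.12 CPM in WT and 1.95, 1.86, 1.12 and 1.66 CPM in KL-/-. The genotypes did not overlap, but 3 WT libraries lay close above the highest KL-/- library and WT replicate 3 far above it. For *Fcgr3*, the log2 fold change was -0.67 (SE 0.25, FDR = 0.101). *Fcgr2b*, the inhibitory IgG receptor, had a log2 fold change of -0.77 with an interval reaching 0.04. The IgG receptor genes resemble each other in sequence, so reads could be split between them. Of the adaptors, *Tyrobp*, which serves TREM and other receptors, had 2.60 ± 1.25 CPM in WT and 1.36 ± 0.40 CPM in KL-/- (SD, n = 4, log2 fold change -0.93, FDR = 0.119), and WT replicate 1 lay below KL-/- replicates 1 and 2. *Fcer1g*, the signalling chain shared by activating Fc receptors, had a log2 fold change of -0.77 (FDR = 0.120).

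Of the 4 NADPH oxidase genes, *Rac2* was lower and the other 3 had FDR values from 0.0659 to 0.117. The 1 call is 25.0% of the 4, beside 6.67% of all genes called lower. *Rac2* encodes the blood cell GTPase that activates the oxidase and also guides actin at the leading edge (chr15:78559169-78572783, minus strand). It had 1.06, 2.13, 2.82 and 2.08 CPM in WT and 1.19, 1.10, 0.497 and 0.792 CPM in KL-/-. WT replicate 1 lay below KL-/- replicates 1 and 2, so the genotypes overlapped, and the other 3 WT libraries lay above all KL-/- libraries. The log2 fold change was -1.18 (SE 0.34, FDR = 0.0483), and *Rac2* stayed past the threshold in 2 of the 8 comparisons that left out a library. *Ncf1*, the organizer subunit that brings the complex together, had a log2 fold change of -0.87 (FDR = 0.0659), and its exons overlap those of *Gtf2ird2* on the opposite strand. *Cybb*, the catalytic membrane subunit, had 3.13 ± 1.18 CPM in WT and 1.87 ± 0.62 CPM in KL-/- (SD, n = 4, log2 fold change -0.76). *Cyba*, its membrane partner, had the smallest difference of the 4, from 6.29 ± 1.51 CPM to 4.26 ± 0.97 CPM (SD, n = 4, log2 fold change -0.56, FDR = 0.108).

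**Figure D2:**
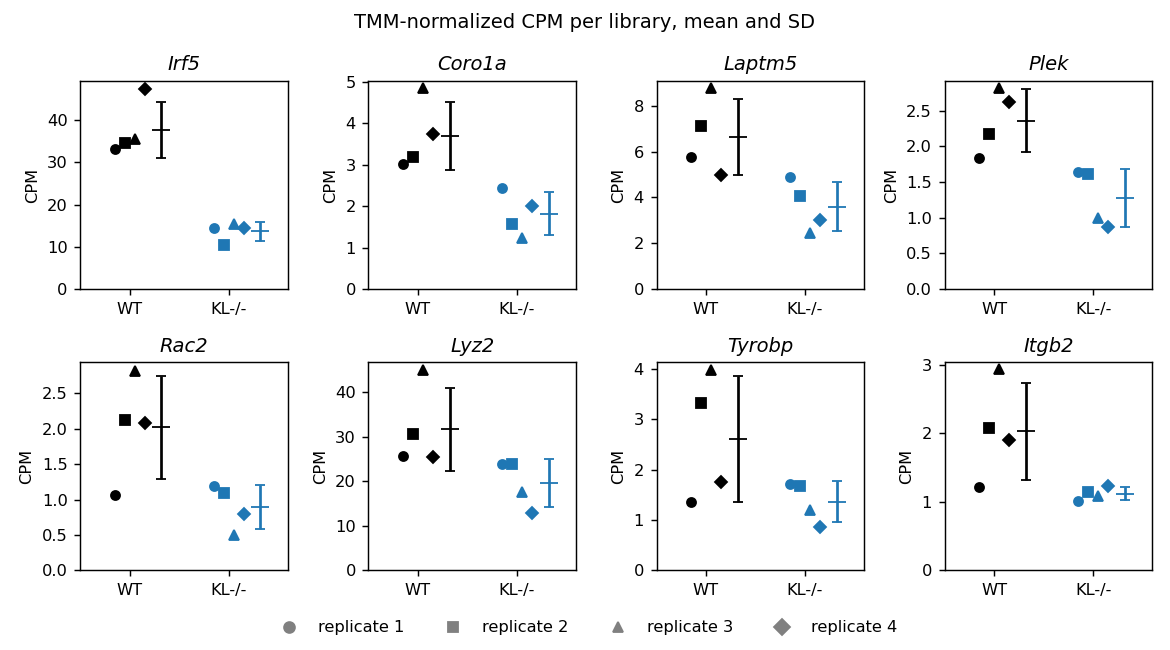
Levels of 8 of the genes in CPM (TMM-scaled, linear axes from 0), with 1 point for each library, the marker shape giving the replicate number, and the mean with its SD at the right of each genotype (n = 4). *Irf5* separates the genotypes by the widest margin, WT replicate 3 is the highest library for the other 7 genes, and *Rac2*, *Tyrobp* and *Itgb2* overlap between genotypes.

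The 8 surface receptor genes had the most negative median log2 fold change of the 7 role groups, -0.99, and 0 of the 8 passed the test. *Itgb2*, the beta chain shared by leukocyte integrins that hold cells to vessel walls (chr10:77530348-77565674, plus strand), had 1.22, 2.08, 2.94 and 1.90 CPM in WT and 1.01, 1.15, 1.08 and 1.24 CPM in KL-/-. The KL-/- libraries lay within a narrow range, and WT replicate 1 fell inside it. *Itgb2* had a log2 fold change of -0.87 (SE 0.27, FDR = 0.0581). *Ptprc*, which encodes the phosphatase CD45 found on all nucleated blood cells, had 3.20 ± 1.31 CPM in WT and 1.77 ± 0.71 CPM in KL-/- (SD, n = 4, log2 fold change -0.88, FDR = 0.107). Of the SLAM family receptors, *Cd84* had 0.653 to 1.18 CPM in WT and 0.249 to 0.593 CPM in KL-/-, without overlap, at a log2 fold change of -1.10 (FDR = 0.0644), and *Cd48* had a log2 fold change of -1.35 with an SE of 0.47. The latter rests on few reads, from 5 counts in KL-/- replicate 4 to at most 39. *Cd52*, a small glycoprotein of the lymphocyte and macrophage surface, and *Cd53*, a tetraspanin, had log2 fold changes of -1.12 and -1.10 with intervals below 0. *Cd37*, another tetraspanin whose exons overlap *Tead2* on the opposite strand, had a log2 fold change of -0.37 (95% interval -0.96 to 0.23), and differences between these genes were not tested. *Csf2rb*, the beta chain of receptors for granulocyte-macrophage colony-stimulating factor and related cytokines, had 3.38 ± 0.78 CPM in WT and 3.33 ± 0.92 CPM in KL-/- (SD, n = 4, log2 fold change -0.04, 95% interval -0.56 to 0.47). Reads of *Csf2rb* are uncertain because of its near copy *Csf2rb2*, which had 4.69 and 3.87 CPM (FDR = 0.488).

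Of the 7 genes of the cytoskeleton and intracellular signalling, *Coro1a* and *Plek* were lower, and 4 of the 7 had no overlap between genotypes, where 6.67% of all genes were called lower and 9.47% had all KL-/- libraries below all WT libraries. *Coro1a* encodes coronin-1A, an actin-binding protein of leukocytes (chr7:126699774-126704816, minus strand). Its levels were 3.02, 3.19, 4.84 and 3.73 CPM in WT and 2.44, 1.57, 1.24 and 2.00 CPM in KL-/-. All WT libraries were above all KL-/- libraries, with KL-/- replicate 1 the nearest. The log2 fold change was -1.01 (SE 0.23, FDR = 0.0226), and *Coro1a* stayed past the threshold in 5 of the 8 comparisons with a library left out. Its exons overlap those of *Bola2* on the opposite strand, and whether reads were counted by strand is not stated. *Plek*, encoding pleckstrin, a protein kinase C substrate of platelets and leukocytes (chr11:16971206-17008718, minus strand), had 1.84, 2.17, 2.82 and 2.62 CPM in WT and 1.64, 1.62, 0.995 and 0.867 CPM in KL-/-. Again the genotypes did not overlap, though WT replicate 1 lay close to KL-/- replicates 1 and 2. *Plek* had a log2 fold change of -0.89 (SE 0.25, FDR = 0.0415) and passed in 3 of the 8 comparisons with a library left out.

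The other 5 genes of this group had negative values without passing the test. *Lcp1*, the actin-bundling protein L-plastin, had 4.84 to 11.1 CPM in WT and 2.90 to 4.68 CPM in KL-/- (log2 fold change -0.91, FDR = 0.0610). *Ptpn6*, the phosphatase SHP-1 that restrains leukocyte signalling, had 1.11 to 2.25 CPM in WT and 0.290 to 1.08 CPM in KL-/- (log2 fold change -1.08, FDR = 0.0782). Both had no overlap between genotypes, and the exons of both overlap predicted gene models on the opposite strand. *Arhgap30*, a GTPase-activating protein, had a log2 fold change of -0.97 (FDR = 0.0693). *Dock2*, a Rac exchange factor needed for leukocyte migration, and *Fyb*, an adaptor linking receptor signals to integrins, had -0.77 and -0.70 with intervals that reached 0.02 and 0.07. Exons of *Fyb* also overlap a gene model on the opposite strand.

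Of the 2 transcription factors of the lineage, *Spi1* and *Irf8* had different values, and neither passed the test. *Spi1*, encoding PU.1 (chr2:91096797-91115756, plus strand), had 1.10, 1.80, 1.91 and 1.08 CPM in WT and 1.08, 0.859, 0.456 and 0.641 CPM in KL-/-. WT replicates 1 and 4 stood at the level of KL-/- replicate 1, and the other WT libraries stood above all KL-/- libraries. *Spi1* had a log2 fold change of -0.93 (SE 0.32, FDR = 0.0781). *Irf8*, a factor of monocyte and dendritic cell development, had 5.73 ± 0.73 CPM in WT and 5.19 ± 1.24 CPM in KL-/- (SD, n = 4, log2 fold change -0.15, 95% interval -0.56 to 0.26). The difference between the fold changes of *Spi1* and *Irf8* was not tested.

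Of the 3 lysosomal genes, *Laptm5* was lower and *Lyz2* and *Ctss* were close to the threshold. The 1 call is 33.3% of the 3, beside 6.67% of all genes called lower. *Laptm5*, a lysosomal membrane protein of blood cells (chr4:130913334-130936148, plus strand), had 5.76, 7.12, 8.77 and 4.98 CPM in WT and 4.88, 4.06, 2.45 and 3.02 CPM in KL-/-. The lowest WT library, replicate 4, and the highest KL-/- library, replicate 1, nearly met. Its log2 fold change was -0.88 (SE 0.24, FDR = 0.0399), and it passed in 3 of the 8 comparisons with a library left out. *Lyz2*, lysozyme of macrophages and granulocytes, had the highest level per length of the 34 genes, with 25.6, 30.6, 45.1 and 25.4 CPM in WT and 24.0, 23.9, 17.7 and 12.8 CPM in KL-/-. There was no overlap, but 4 libraries, 2 of each genotype, lay between 23.9 and 25.6 CPM. For *Lyz2*, the log2 fold change was -0.70 (SE 0.24, FDR = 0.0767). Reads of *Lyz2* may be shared with its near copy *Lyz1*, which was lower in KL-/- muscle, from 3.19 ± 0.14 CPM to 2.01 ± 0.39 CPM (SD, n = 4, log2 fold change -0.66, FDR = 0.0277). *Ctss*, the protease cathepsin S of antigen-presenting cells, had 4.40 ± 1.43 CPM in WT and 2.47 ± 0.74 CPM in KL-/- (SD, n = 4, log2 fold change -0.83, FDR = 0.0748).

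**Figure D3:**
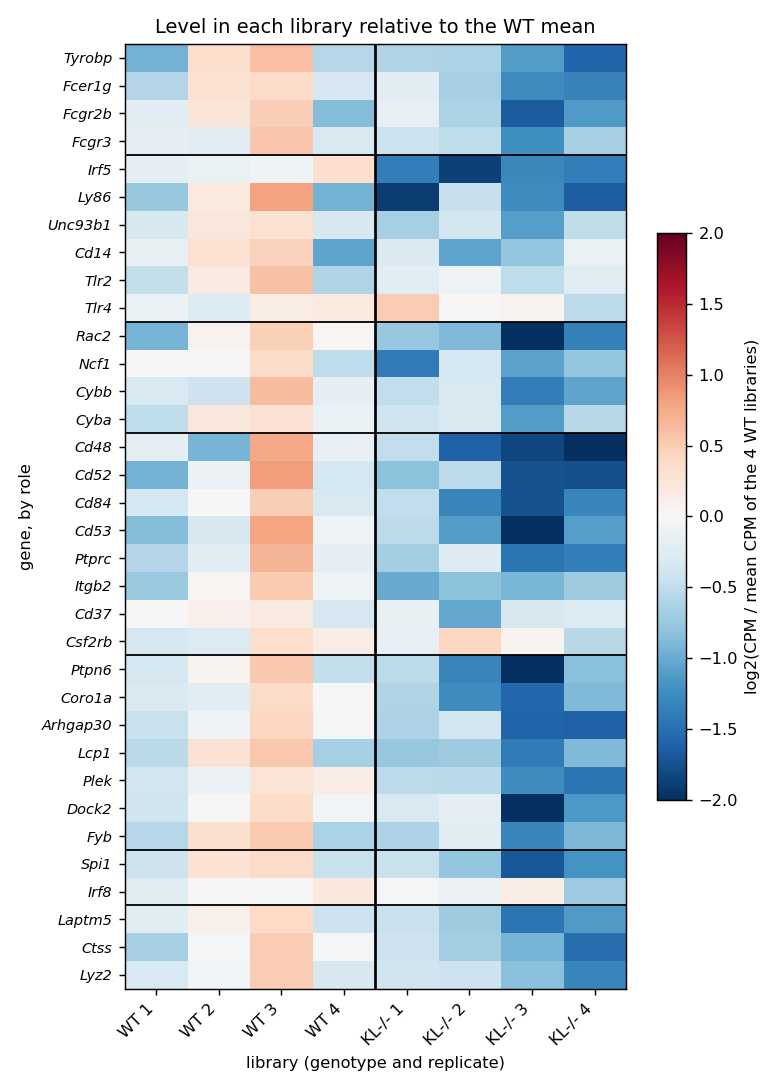
Level of each of the 34 genes in each of the 8 libraries, as log2 of CPM over the mean CPM of the 4 WT libraries, with genes grouped by role between horizontal lines. Values below -2 are drawn at -2. WT replicate 3 is the reddest column and KL-/- replicates 3 and 4 the bluest, and *Irf5* shows a different order of libraries from the rows around it.

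Libraries of the same genotype differed widely, and many genes shared the order of the libraries. WT replicate 3 was the highest of the 8 libraries for 30 of the 34 genes. The lowest library was KL-/- replicate 3 for 16 genes and KL-/- replicate 4 for 11. Within WT, replicate 1 was the lowest for 18 genes and replicate 4 for 13. Relative to the WT mean of each gene, the median over the 34 was 0.78, 1.00, 1.40 and 0.81 in WT replicates 1 to 4 and 0.71, 0.66, 0.41 and 0.46 in KL-/- replicates 1 to 4. WT replicates 1 and 4 were thus nearer to KL-/- replicates 1 and 2 than to WT replicate 3. *Irf5* did not follow this order, being highest in WT replicate 4 and lowest in KL-/- replicate 2.

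The levels of cell type markers are given beside those of the 34 genes. Counts of called markers are to be read against the 6.67% of all genes called lower and the 7.35% called higher. All 11 macrophage markers on a separate list were counted, and *Adgre1*, which encodes the macrophage surface protein F4/80, was lower (log2 fold change -1.52, FDR = 0.0364), while the other 10 did not pass. Of the 11, 9 had a negative log2 fold change, and the median over the 11 was -0.88. Positive values were found for *Mertk* (0.34, FDR = 0.169) and *Mrc1* (0.16, FDR = 0.754). *Mrc1* had the highest mean WT level of the 11, 16.9 CPM, against 18.8 CPM in KL-/-. The summed level of the 11 markers was 46.8 to 102 CPM in WT and 35.6 to 67.8 CPM in KL-/-, highest in WT replicate 3 and lowest in KL-/- replicate 3. Of 8 fibroblast and fibro-adipogenic markers, *Dpt*, *Dcn* and *Lum*, which encode extracellular matrix proteins, were lower, and the list had a median log2 fold change of -1.08. Its summed level was 1331, 2844, 3034 and 830 CPM in WT replicates 1 to 4 and 981, 1362, 459 and 665 CPM in KL-/- replicates 1 to 4. Most of this sum came from *Col1a1* and *Col3a1*, with mean WT levels of 546 and 893 CPM, neither called. The median over the 8 genes, relative to the WT mean of each, was 0.78, 1.13, 1.36 and 0.68 in WT. In KL-/- it was 0.62, 0.66, 0.28 and 0.39. Endothelial markers summed to 535 to 779 CPM in WT, highest in replicate 3, and to 527 to 551 CPM in KL-/-, and 1 of the 9, the VEGF receptor gene *Kdr*, was lower (log2 fold change -0.90, FDR = 0.00781). The defining genes of muscle fibers were abundant, with 10 fiber markers summing to 147604 to 170764 CPM in WT and 179844 to 231927 CPM in KL-/-. Of the 10, *Actn3* was called higher (log2 fold change 0.67, FDR = 0.0103), and 0 had a negative log2 fold change. Every KL-/- library was above every WT library for 5 of the 10, beside 1283 of all 12551 genes. The part of connective tissue, vessel and fiber content, or of fiber type, in the levels of the leukocyte genes was not tested.

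**Figure D4:**
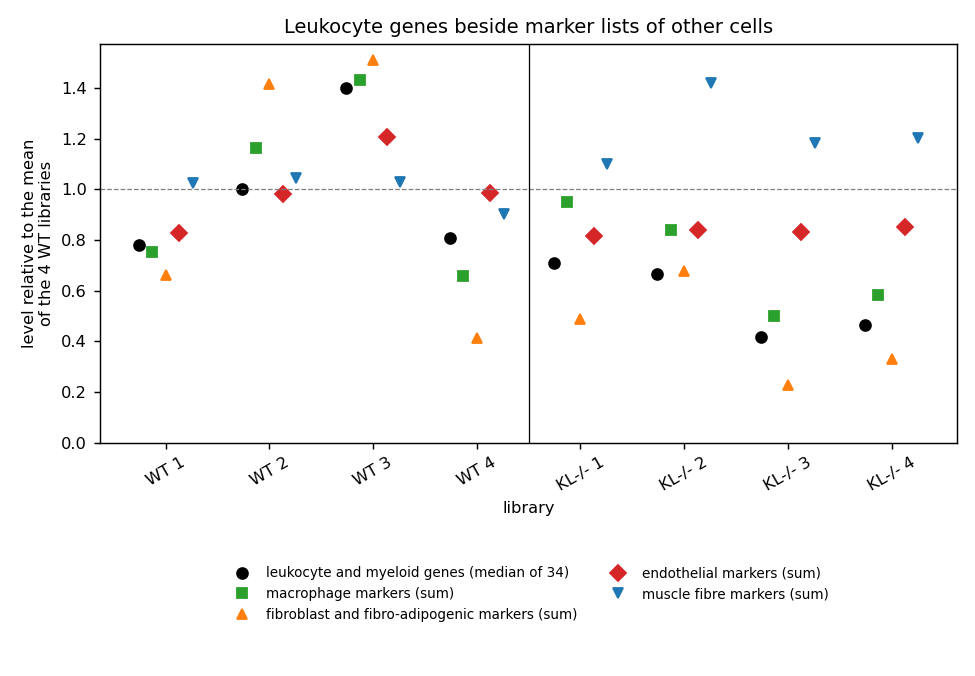
Level in each library relative to the mean of the 4 WT libraries (dashed line at 1), for the 34 leukocyte and myeloid genes as the median over genes and for 4 marker lists as summed CPM, with 1 point for each list and library. The leukocyte genes, macrophage markers and fibroblast markers are all highest in WT replicate 3 (1.40, 1.43 and 1.51) and lowest in KL-/- replicate 3 (0.41, 0.50 and 0.23), and fiber markers lie between 1.10 and 1.42 in the KL-/- libraries. Most of the fibroblast sum comes from *Col1a1* and *Col3a1*.

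Other genes of the same pathways were described from lists beside the 34, to be read against the 6.67% of all genes called lower and the 7.35% called higher. Of 12 counted genes of Fc receptor and ITAM signalling, 3 were lower, 0 were higher and the median log2 fold change was -0.78. *Syk*, the kinase recruited by phosphorylated ITAMs, had 3.67, 3.89, 4.92 and 3.59 CPM in WT and 1.67, 1.96, 1.70 and 1.70 CPM in KL-/-, a log2 fold change of -1.20 (SE 0.15, FDR = 0.00307). Its genotypes were well apart with little spread within KL-/-. *Pik3cd*, a phosphoinositide kinase subunit known from leukocytes, was also lower, with a log2 fold change of -0.52 (FDR = 0.0076). So was *Sh3bp2*, an adaptor that binds the Syk kinase, with -0.90 (FDR = 0.0424). In WT, *Pik3cd* stood at 5.24 CPM per kb, against a median of 0.92 CPM per kb over the 34 genes. Which cells supplied the *Pik3cd* RNA was not tested. Of 14 counted genes of Toll-like receptor signalling, *Tlr5*, the flagellin receptor, was lower (log2 fold change -1.13, FDR = 0.0320), 13 did not pass, and the median was -0.15.

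Of 16 counted cytoskeleton regulators of leukocytes, *Nckap1l* and *Wipf1*, both in pathways that drive actin branching, were lower (log2 fold changes -1.18 and -0.59, FDR = 0.0472 and 0.0320), 14 did not pass, and the median was -0.43. No gene passed among 5 partners of the NADPH oxidase, whose median was -0.20 and whose lowest FDR was that of the broadly expressed GTPase gene *Rac1* (0.18, FDR = 0.0921). Of 7 further transcription factors of myeloid cells, 1 was higher and 0 were lower. This was *Cebpb*, an inflammatory factor that is also used outside blood cells, with 39.7, 30.1, 25.0 and 28.2 CPM in WT and 52.6, 48.5, 84.2 and 57.0 CPM in KL-/- (log2 fold change 0.98, SE 0.19, FDR = 0.0127). Its levels in all KL-/- libraries were above those in all WT libraries, and KL-/- replicate 3 was the highest.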

How the data were processed

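Counts per gene, deposited as whole numbers without normalization, were used for TA muscles of 4 WT and 4 KL-/- mice. Per the labels and the methods, the authors used FastQC for quality checks, STAR for alignment to mm10, a filter on poorly mapped reads and featureCounts for the counting. The annotation version and the use of strand are not given in the sources used here. The labels name total RNA and the methods mRNA. Genotype and replicate number came from the sample titles.

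The quasi-likelihood test of edgeR 4.0.16 (R 4.3.3) was fitted to genotype, with TMM factors and the default filter (12551 of 12551 genes kept), and adjusted over all genes by Benjamini-Hochberg at an FDR under 0.05. A fold change has an SE of its size over the square root of F. Libraries held 20860262 to 29273758 counts, and no 2 libraries of a genotype agreed within sampling noise. Exon overlaps were read from GENCODE M21 and promoters from RefSeq (GRCm38.p6).

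All 34 counted genes are named. Each library is given for genes past the threshold and for the lowest FDR in each role. Genes outside the group are named if on a list and past the threshold or lowest in FDR, or if a result turns on them. *Tnpo3*, *Lyz1* and *Csf2rb2* were added after their values were seen. The members and the lists were chosen with earlier results of these data known.

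Alternatives were RLE factors, library totals, a minimum of 10 counts in every library, no filter, the likelihood ratio test, limma-voom (limma 3.58.1), DESeq2 1.42.0, the replicate number as a block, each library left out, and, chosen after seeing the data, the edgeR 3 quasi-likelihood test.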

Additional observations from a re-analysis of the deposited data

Results flagged for a closer look

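In groups of 4 libraries, 1 library stood far from the others for 3 of the 68 gene and genotype combinations, where chance alone marks about 1 in 20. *Cybb* was at 4.88 CPM in WT replicate 3, against 2.36 to 2.76 CPM in the other WT libraries. *Fcgr3* was at 3.85 CPM in the same library, against 2.12 to 2.29 CPM. *Irf5* was at 47.4 CPM in WT replicate 4, against 33.2 to 35.6 CPM.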

How the results depend on the processing

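Of the 34 genes, 5 were lower by the test as reported, and the number was 15 when library totals replaced TMM factors, 16 by the likelihood ratio test, 11 by DESeq2 and 1 to 8 with a library left out. Of all genes, 6.67% were called lower as reported, 16.9% with library totals, 8.76% by the likelihood ratio test, 9.11% by DESeq2 and 2.73% to 9.83% with a library left out. It was 5 with RLE factors and with a minimum of 10 counts (28 of the genes tested), and 4 by limma-voom and by the edgeR 3 test, which both left out *Rac2*. Library totals moved the median of all genes from -0.02 to -0.13 and turned the split of all calls from 922 higher and 837 lower (52.4% higher) to 492 higher and 2127 lower (18.8% higher). The cause of the larger counts was not tested. Calls over all genes numbered 1759, and 762 to 2755 with a library left out (lowest without KL-/- replicate 3, highest without KL-/- replicate 2). The count of genes without overlap was 10, ranged from 10 to 20 with a library left out (20 without WT replicate 1), where fewer libraries are compared, and was 15 with library totals. The median log2 fold change ranged from -0.996 to -0.62 over the comparisons with a library left out. The sign turned for *Tlr4* with library totals (-0.051) and, with a library left out, for *Tlr4* (-0.12 to 0.22), *Tlr2* (-0.42 to 0.027), *Csf2rb* (-0.21 to 0.10) and *Irf8* (-0.26 to 0.0064), none of which was called. Leaving out the default filter changed nothing, since it removed no gene. Of 538 values of single genes under the other alternatives, 469 kept direction and side of the threshold, but most of the genes were not called as reported. Of the other values, 25 lost the threshold, 35 gained it and 9 turned sign. The 25 all fell on 4 of the 5 called genes, *Coro1a*, *Laptm5*, *Plek* and *Rac2*.

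With the replicate number as a block, 671 genes passed and 1 of the 34, *Irf5*, was lower. Deviations of libraries with the same number correlated at -0.15, 0.18, -0.37 and 0.02, so the numbers are only names. Counts went down to 5 for *Cd48*, and the share of counting error in the spread between libraries was not tested.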

Other observations

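Leukocyte types other than macrophages left few markers to describe. Of 14 T and NK cell markers and 6 B cell markers, 0 were analysed here. Of 12 neutrophil markers, *S100a9* was counted, with 0.122, 0.324, 0.610 and 0.143 CPM in WT and 0.837, 0.239, 1.41 and 0.678 CPM in KL-/- (log2 fold change 1.41, SE 0.59, FDR = 0.132). The genotypes overlapped. Of 5 mast cell markers, 4 were counted, none passed, and their median log2 fold change was -0.46, with the lowest FDR, 0.306, for the stem cell factor receptor gene *Kit*. *Zbtb46*, the 1 counted gene of 6 dendritic cell markers, had a log2 fold change of -0.19 (FDR = 0.617), and *Alas2*, the 1 counted gene of 6 erythrocyte markers, one of 0.12 (FDR = 0.868).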
